A study of Homo sapiens with 6 samples.

Results

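The genes described here are 53 interferon-stimulated antiviral genes, taken from the deposited count table by their symbols from a fixed list of antiviral effectors that type I interferon induces, without sensors, JAK-STAT components and MHC genes. Each of the 53 symbols matched 1 of the 61860 gene rows, and all 53 were among the 18740 genes that passed the filter on low counts, each of them through both groups. They were measured in the human renal carcinoma line 786-O, a clear cell tumour line that lacks functional VHL, in cells that stably expressed either an shRNA against METTL3 (shMETTL3, 3 libraries) or a control shRNA (shControl, 3 libraries). METTL3 is the catalytic subunit of the methyltransferase that places N6-methyladenosine (m6A) on mRNA. The labels name no interferon treatment, the shMETTL3 columns all carry 1 number that no label explains and were assigned by elimination, and neither separate cultures nor clones are mentioned, so each p-value reflects only how far these 6 libraries scatter, and that scatter may be technical.

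Type I interferons bind the receptor IFNAR1/IFNAR2, whose kinases JAK1 and TYK2 phosphorylate STAT proteins. These join IRF9 in the complex ISGF3, which binds the interferon-stimulated response element (ISRE) in promoters. The induced proteins bind or degrade viral RNA, block entry and budding, and attach the ubiquitin-like protein ISG15 to other proteins. Many of these genes are also transcribed at a basal level in unstimulated epithelial and tumour cells.

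To show the letters through which these genes are known to be regulated, RefSeq promoter windows (GRCh38.p14, 250 bases before to 50 bases after each start) were searched for the ISRE core GAAANNGAAA on both strands, with overlapping matches counted. Windows were found for 44 of the 53 genes, and 32 of these 44 (72.7%) held a match, against 4.38% of the 27305 genes with a window. The core of the gamma-activated site (GAS), TTCNNNGAA, which STAT dimers bind, was in the windows of 12 of the 44 (27.3%), against 9.38% of all. The entries that were not found are GBP2, IFIT2, IFITM2, IRF7, MX2, OAS2, OASL, TRIM22 and USP18. A gene counted as matched if any of its windows held a match. RSAD2, MX1 and PARP9 each also have a window without a match. Stretches of 10 windows are shown, chosen to include genes that fell and genes that did not pass the test. The ISRE letters are in capitals and the strand of the gene is given.
ISG15 (chr1:1013374-1013409, plus strand): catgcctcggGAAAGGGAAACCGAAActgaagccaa
IFIT1 (chr10:89392497-89392539, plus strand): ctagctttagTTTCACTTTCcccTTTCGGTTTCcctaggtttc
RSAD2 (chr2:6877622-6877651, plus strand): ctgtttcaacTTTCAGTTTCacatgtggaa
EPSTI1 (chr13:42992272-42992301, minus strand): ctgattctgaGAAACCGAAActcagctgtt
GBP1 (chr1:89065316-89065345, minus strand): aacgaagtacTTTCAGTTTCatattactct
GBP3 (chr1:89022845-89022874, minus strand): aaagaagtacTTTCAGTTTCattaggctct
DTX3L (chr3:122564322-122564351, plus strand): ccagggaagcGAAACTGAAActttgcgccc
MX1 (chr21:41420559-41420588, plus strand): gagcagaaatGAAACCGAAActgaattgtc
BST2 (chr19:17405735-17405770, minus strand): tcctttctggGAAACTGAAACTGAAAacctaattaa
TRIM21 (chr11:4393660-4393695, minus strand): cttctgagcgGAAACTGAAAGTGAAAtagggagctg

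A match is a description of letters and not a measured binding site. The DTX3L stretch is also that of its neighbour PARP9, read from the other strand. GBP1 and GBP3 hold the same capital letters. Of the 32 genes with an ISRE match, 26 fell (edgeR adjusted p under 0.05) and 6 did not pass the test, with a median log2 fold change of −0.51. Of the 12 without a match, 8 fell and 4 did not pass, with a median of −0.39. The GAS core was held by 12 genes, of which 9 fell and 3 did not pass (median −0.47). Over all genes tested, 16.9% were called lower and the median log2 fold change was −0.0030. The difference between genes with and without a match was not tested, and the 9 genes without a window are in neither group.

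METTL3, the targeted gene, received 1064, 956 and 1145 counts in shMETTL3 libraries A, B and C, against 3874, 4060 and 4141 counts in shControl libraries A, B and C. Its log2 fold change was −1.80 (SE 0.08, edgeR adjusted p = 1.45e-07), and its exons overlap those of TOX4 on the opposite strand. Total counts ran from 100534896 to 101473388 in the shMETTL3 libraries and from 102420127 to 103624456 in the shControl libraries. The renal markers PAX8, PAX2, LHX1, KRT8 and KRT18 each had at least 1944 counts in every library, whereas EPCAM had at most 66 and CDH1 at most 11, so the epithelial label rests on renal factors and keratins rather than on those junction genes. Of 12 leukocyte markers, 8 were too low to test, PTPRC reached no more than 4 counts, and CD3E and MS4A1 were at 0 in all 6 libraries. CD8A, ITGAM and CSF1R had low counts in every library and did not pass. CD8A had 59, 66 and 73 counts in shMETTL3 libraries, against 95, 80 and 116 counts in shControl libraries (log2 fold change −0.42, SE 0.20, edgeR adjusted p = 0.123). Summed over the leukocyte list, the level was 1.42 to 1.74 CPM in shMETTL3 libraries and 1.70 to 2.05 CPM in shControl libraries. The 1 marker of that list called lower was CD14, with 9, 5 and 9 counts in shMETTL3 libraries, against 12, 30 and 26 counts in shControl libraries (log2 fold change −1.41, SE 0.43, edgeR adjusted p = 0.0232), a call lost without shMETTL3 library A or B or shControl library B or C (−1.57 to −1.15, edgeR adjusted p from 0.0508 to 0.108) and with DESeq2 (adjusted p = 0.0560). CPM stands for counts divided by the TMM-adjusted library total and scaled to 1e6.

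Interferon-stimulated antiviral genes were lower in the METTL3 knockdown libraries as a group. Of the 53, 42 fell, 0 rose and 11 did not pass the test, where a gene was called at a Benjamini-Hochberg adjusted p under 0.05 over all 18740 genes tested. Among all genes tested, 16.9% were called lower, 16.5% higher and 33.5% in either direction, against 79.2% of the 53 called lower. The median log2 fold change was −0.49 for the 53 and 0.00 for all genes tested (−0.0030). With the test of DESeq2, 41 of the 53 fell and 0 rose, and at an unadjusted edgeR p under 0.05 no gene of the 53 was higher and 44 were lower. Scaling by library size alone shifted the median of all genes tested to −0.11 and the shares called lower and higher to 25.2% and 10.6%, and 43 of the 53 then fell with a median of −0.60, which is −0.49 relative to that shift. The filtered fit of log2(FPKM + 1) called 24.8% of genes lower and 10.6% higher, and 40 of the 49 genes that it tested fell, with a median of −0.48 against −0.094 for all genes, which is −0.38 relative to that shift. In bulk libraries, fewer cells that express a gene and less RNA per cell cannot be told apart.

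**Figure D1:**
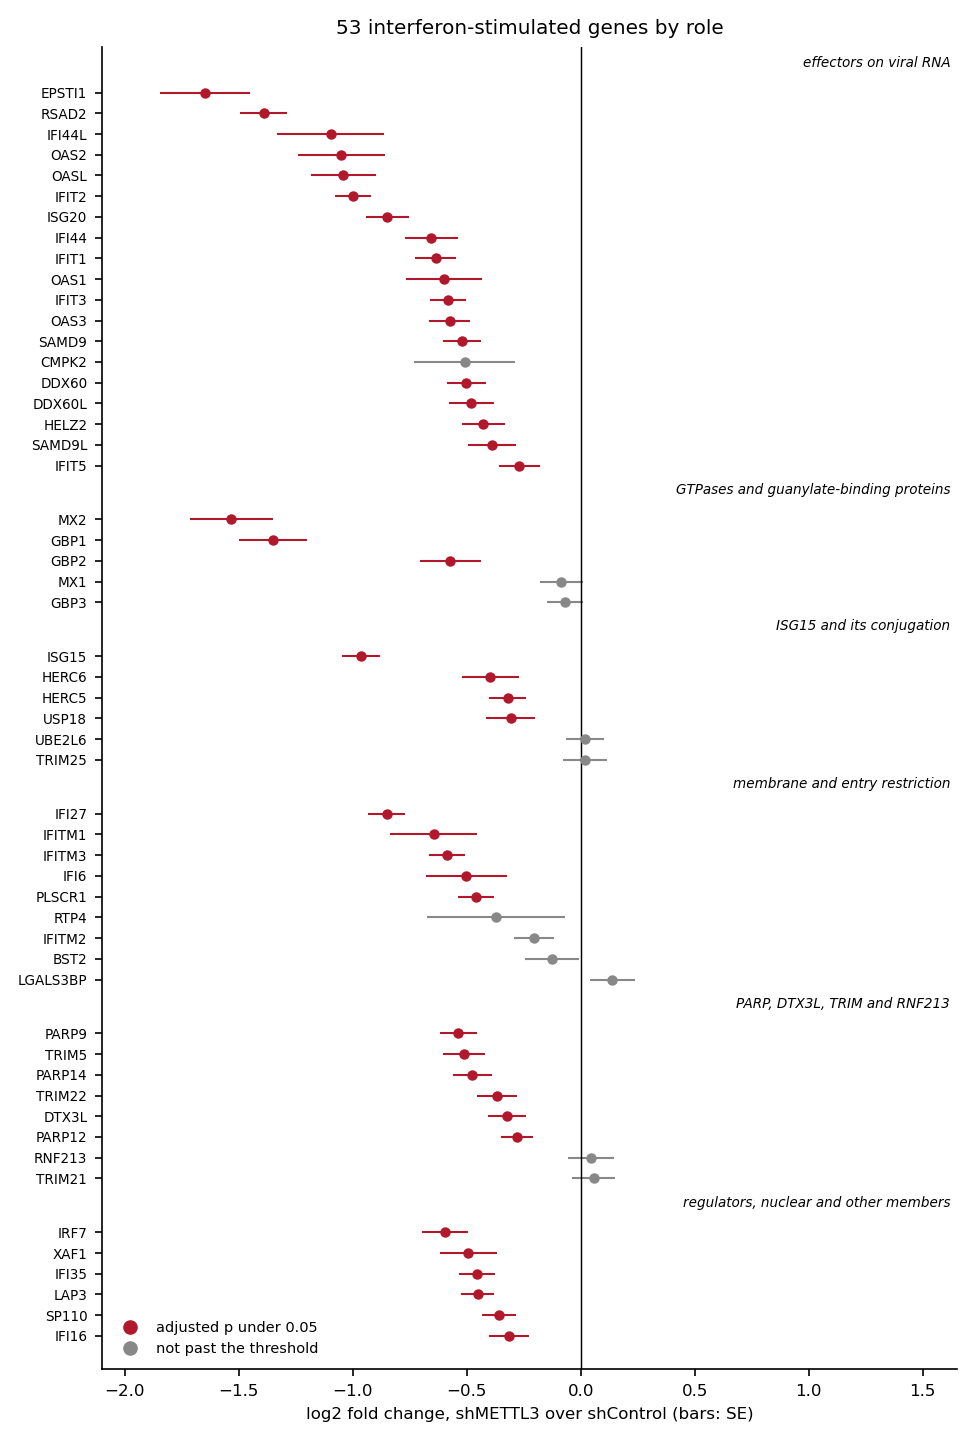
Log2 fold change of each of the 53 genes, shMETTL3 over shControl (x axis, points with SE bars), grouped by role and ordered by size within a group (y axis). Red points passed the test and grey points did not; the 42 red points all lie left of 0, from −1.65 for EPSTI1 to −0.27 for IFIT5.

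In 41 of the 53 genes, every shMETTL3 library lay below every shControl library, and in 0 genes was every shMETTL3 library above. Over all genes tested these shares were 23.9% and 23.4%. At least 2-fold lower, among genes past the test, were 7 of the 53 (13.2%), against 2.15% of all genes tested. These 7 were EPSTI1, MX2, RSAD2, GBP1, IFI44L, OAS2 and OASL, and IFIT2 stood just short of that size. In fits that left out 1 library, EPSTI1, MX2, RSAD2 and GBP1 stayed past that size. IFI44L, OAS2 and OASL did not, with log2 fold changes that reached −0.91, −0.94 and −0.95. The median gene was 0.51, 0.47 and 0.43 lower on the log2 scale than its shControl mean in shMETTL3 libraries A, B and C. The shControl libraries were not level with each other, since the corresponding medians were 0.05 for A, 0.03 for B and −0.11 for C, and library C was the lowest control for 32 of the 53 genes. Without shControl library C, 41 of the 53 still fell, and the median was −0.53.

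**Figure D2:**
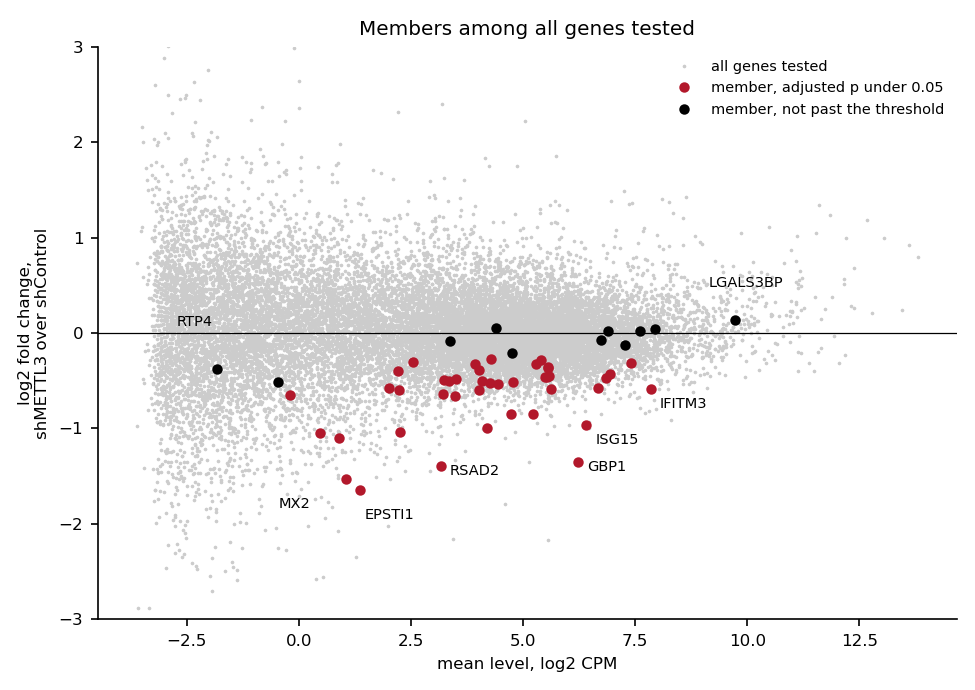
Log2 fold change, shMETTL3 over shControl (y axis), against mean level in log2 CPM (x axis) for all 18740 genes tested in grey, with 16 genes beyond the y axis not drawn. The 42 members past the test (red) lie below 0 across the range of levels, and the 11 not past it (black) include the most abundant member, LGALS3BP.

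The genes spanned a wide range of levels. On the per-length scale of the deposited FPKM values, IFITM3 was the highest, at 534 FPKM in shMETTL3 libraries and 868 FPKM in shControl libraries on average, and RTP4 was the lowest, at 0.177 FPKM in shMETTL3 libraries and 0.250 FPKM in shControl libraries. IFITM3, LGALS3BP and ISG15 together made up 53.7% of the summed FPKM of the 53 genes in shControl libraries. Summed over the 53, the level was 2336, 2199 and 2201 FPKM in shMETTL3 libraries A, B and C, against 3120, 3115 and 3112 FPKM in shControl libraries A, B and C. In CPM the summed levels were closer, at 3096.4, 3095.5 and 2975.4 in shMETTL3 libraries, against 3755.7, 3580.6 and 3445.9 in shControl libraries. FPKM gives short genes more weight, and the median of all genes also shifted on that scale, to −0.0943 on filtered log2(FPKM + 1). Weakly expressed members tended to have the more negative log2 fold changes, with a Pearson r of 0.45 and a Spearman rho of 0.46 between log2 fold change and log2 mean CPM over the 53 genes, against −0.025 and −0.049 over all genes tested. These are descriptions across genes that share the same 6 libraries.

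The largest role group, with 19 genes, holds proteins that act on viral RNA or its replication together with companions of these. Of the 19, 18 fell, 0 rose and CMPK2 did not pass, with a median log2 fold change of −0.60. RSAD2 encodes viperin, a radical-SAM enzyme that makes a chain-terminating nucleotide. It stood at 4.95, 4.92 and 4.93 CPM in shMETTL3 libraries A, B and C, against 11.4, 14.3 and 13.1 CPM in shControl libraries. The shMETTL3 libraries were nearly identical and lay far under the lowest control, a log2 fold change of −1.39 (SE 0.10, edgeR adjusted p = 7.18e-06). CMPK2, a mitochondrial nucleotide kinase that lies head to head with RSAD2, had 0.445, 0.545 and 0.728 CPM in shMETTL3 libraries, against 0.836, 0.872 and 0.745 CPM in shControl libraries. Its groups did not overlap, but shMETTL3 library C came close to the controls, and the log2 fold change of −0.51 (SE 0.22) did not pass (edgeR adjusted p = 0.0916). Without shMETTL3 library C it was −0.72 and passed (edgeR adjusted p = 0.0322). Exons of CMPK2 and RSAD2 overlap on opposite strands, so reads there cannot be told apart if strand was not used.

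IFIT proteins bind foreign RNA by its 5′ end and block its translation, and all 4 measured genes of this family fell. IFIT2 had 11.58, 12.04 and 12.99 CPM in shMETTL3 libraries A, B and C, against 23.8, 24.3 and 25.1 CPM in shControl libraries. Its groups were far apart and tight, and it fell by 0.9998 on the log2 scale (SE 0.08, edgeR adjusted p = 8.19e-06). IFIT1 had 7.57, 6.95 and 7.13 CPM in shMETTL3 libraries, against 10.6, 11.3 and 11.7 CPM in shControl libraries, a log2 fold change of −0.64 (SE 0.09). IFIT3, the partner that stabilises IFIT1, had 37.6, 37.2 and 43.2 CPM in shMETTL3 libraries, against 59.6, 58.4 and 58.6 CPM in shControl libraries (−0.58, SE 0.08). Neither gene's groups overlapped. IFIT5 changed least in the family, at 17.6 ± 1.84 CPM in shMETTL3 libraries and 21.2 ± 0.86 CPM in shControl libraries (SD, n = 3 each), and fell by 0.27 on the log2 scale (SE 0.09, edgeR adjusted p = 0.0326). That call was lost without shMETTL3 library A or B or shControl library A or B (log2 fold change −0.26 to −0.23, edgeR adjusted p from 0.0800 to 0.124). The IFIT2 exons overlap those of LIPA on the opposite strand and those of AL353751.1 on the same strand, so its counts are less certain.

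OAS proteins sense double-stranded RNA and make 2′-5′-linked oligoadenylates, and OASL is a relative without that activity that enhances RIG-I signalling. OAS3 had 73.4, 88.2 and 84.6 CPM in shMETTL3 libraries, against 132, 124 and 111 CPM in shControl libraries, a log2 fold change of −0.57 (SE 0.09, edgeR adjusted p = 0.000537). OASL had 3.30, 3.15 and 2.88 CPM in shMETTL3 libraries, against 6.98, 7.22 and 5.01 CPM in shControl libraries (−1.04, SE 0.14). In both genes shControl library C was the lowest control but stayed above the knockdown libraries. OAS2 averaged 0.882 ± 0.115 CPM in shMETTL3 libraries and 1.83 ± 0.357 CPM in shControl libraries (SD, n = 3 each), and fell by 1.05 on the log2 scale (SE 0.19). OAS1 averaged 3.73 ± 0.486 CPM in shMETTL3 libraries and 5.65 ± 1.35 CPM in shControl libraries (SD, n = 3 each), with overlapping groups and a log2 fold change of −0.60 (SE 0.17, edgeR adjusted p = 0.0143). The OAS1 call was lost without shMETTL3 library B or shControl library A or B (−0.56 to −0.44, edgeR adjusted p from 0.0543 to 0.0692).

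Other genes of the group fell as well. EPSTI1, a gene that stromal contact and interferon induce in epithelial cells, had 1.19, 1.27 and 1.21 CPM in shMETTL3 libraries, against 4.98, 3.79 and 2.72 CPM in shControl libraries. Its log2 fold change of −1.65 (SE 0.20, edgeR adjusted p = 0.000105) was the most negative of the 53, and its controls were spread over nearly a 2-fold range. ISG20, an RNA exonuclease, had 20.8, 16.5 and 19.0 CPM in shMETTL3 libraries, against 33.4, 31.8 and 36.3 CPM in shControl libraries (−0.85, SE 0.09). DDX60, a helicase that assists RIG-I, had 12.8, 14.5 and 14.8 CPM in shMETTL3 libraries, against 19.5, 20.6 and 19.6 CPM in shControl libraries (−0.50, SE 0.08). SAMD9, a cytosolic restriction factor of poxviruses, had 14.9, 16.9 and 15.6 CPM in shMETTL3 libraries, against 23.5, 23.4 and 21.1 CPM in shControl libraries (−0.52, SE 0.08). IFI44, a gene of the IFI44 family, had 9.43, 8.11 and 8.27 CPM in shMETTL3 libraries, against 13.96, 15.39 and 11.31 CPM in shControl libraries (−0.66, SE 0.12). None of these groups overlapped. The remaining 4, IFI44L, DDX60L, HELZ2 and SAMD9L, fell by 1.10, 0.48, 0.43 and 0.39 on the log2 scale. The SAMD9L call was lost without shMETTL3 library A or shControl library B (−0.33 and −0.32, edgeR adjusted p of 0.0544 and 0.0648). On unfiltered log2(FPKM + 1), which understates changes of low genes, the calls of IFI44L (−0.30, limma adjusted p = 0.0937), DDX60L (−0.36, limma adjusted p = 0.0546) and SAMD9L (−0.37, limma adjusted p = 0.0690) were lost.

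**Figure D3:**
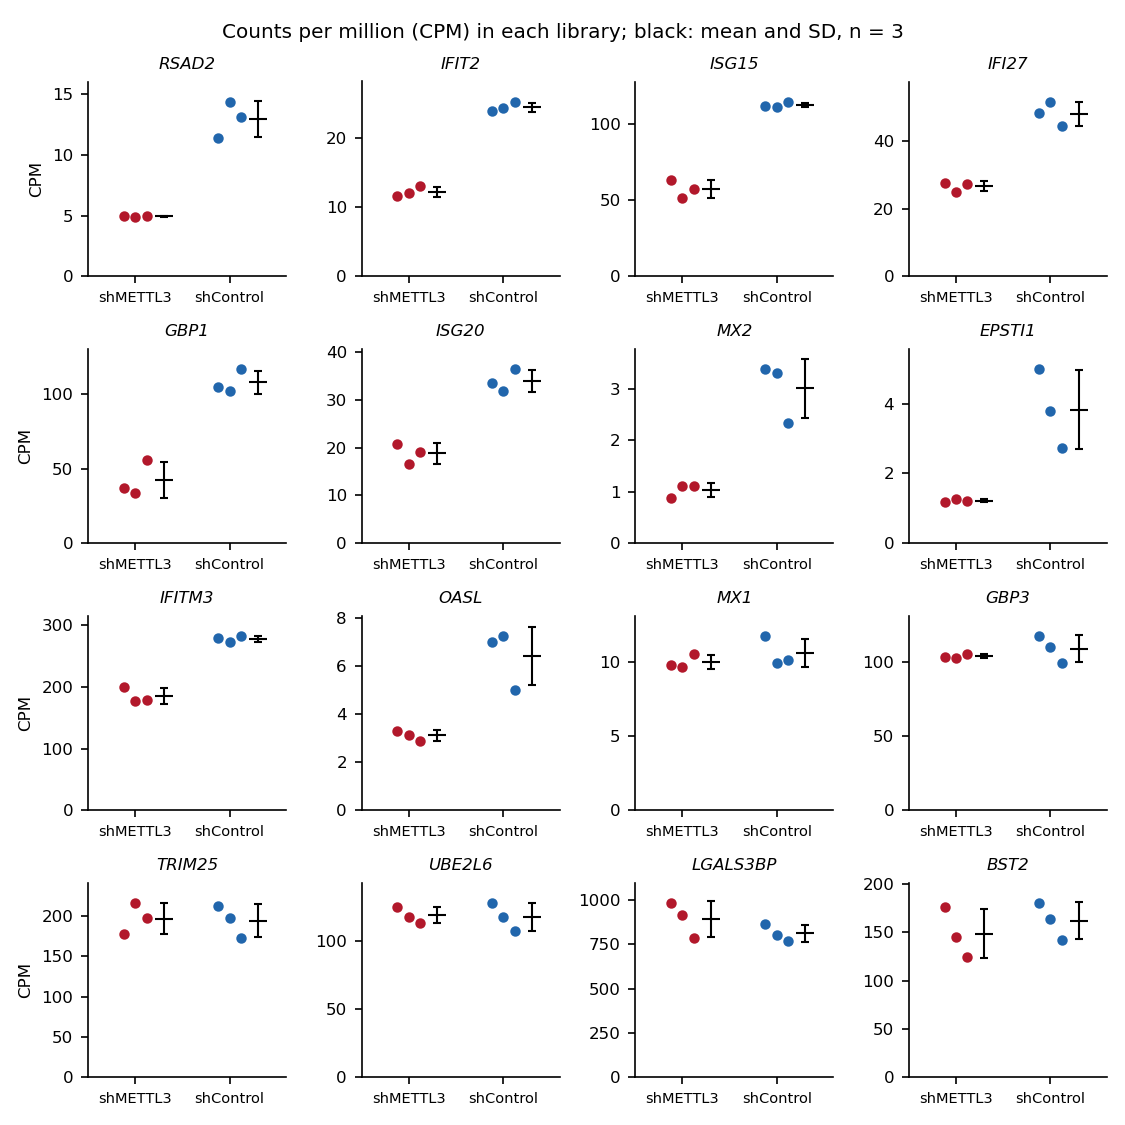
CPM in each library (y axis, from 0) for 10 genes that fell and 6 that did not pass the test, with shMETTL3 libraries A to C in red at the left and shControl libraries A to C in blue at the right of each panel. Black marks are means with SD (n = 3); in RSAD2 to OASL the red points lie below all blue points, whereas in MX1 to BST2 the groups overlap.

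Among the GTPases, 3 of 5 fell and 2 did not pass. MX2, a nuclear-envelope GTPase that restricts HIV-1, had 0.878, 1.112 and 1.117 CPM in shMETTL3 libraries, against 3.37, 3.30 and 2.33 CPM in shControl libraries. Every knockdown library lay well below the lowest control, with a log2 fold change of −1.53 (SE 0.18, edgeR adjusted p = 9.77e-05). MX1, its cytosolic neighbour on chromosome 21, had 9.81, 9.69 and 10.6 CPM in shMETTL3 libraries, against 11.8, 9.99 and 10.2 CPM in shControl libraries. Those groups overlapped, and its log2 fold change of −0.09 (SE 0.09, edgeR adjusted p = 0.517) did not pass. The log2 ratio of MX2 to MX1 was −3.27 ± 0.18 in shMETTL3 libraries and −1.84 ± 0.26 in shControl libraries (SD, n = 3 each). The ratio was lower in every shMETTL3 library than in every shControl library, a difference of −1.43. The exact two-sided permutation p was 0.10, the smallest that 3 against 3 libraries allow, so that test could not have passed a threshold of 0.05 whatever the size of the difference.

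Guanylate-binding proteins coat intracellular pathogens and their vacuoles. GBP1 had 37.0, 33.8 and 56.1 CPM in shMETTL3 libraries, against 105, 102 and 116 CPM in shControl libraries. The groups were well apart, with a log2 fold change of −1.35 (SE 0.15, edgeR adjusted p = 6.71e-05). GBP3 had 104, 103 and 105 CPM in shMETTL3 libraries, against 117, 110 and 99.5 CPM in shControl libraries. Its groups overlapped and its log2 fold change of −0.07 (SE 0.08, edgeR adjusted p = 0.520) did not pass, although both windows hold the ISRE letters shown above; the difference between the pair was not tested. GBP2 averaged 3.22 ± 0.505 CPM in shMETTL3 libraries and 4.78 ± 0.203 CPM in shControl libraries (SD, n = 3 each), and fell by 0.57 on the log2 scale (SE 0.13). GBP genes are near-identical in parts, so counts within the family are less certain.

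ISG15 and the enzymes that attach and remove it fell in 4 of 6 cases. ISG15 itself had 63.6, 51.7 and 57.7 CPM in shMETTL3 libraries, against 112, 111 and 114 CPM in shControl libraries. It fell by 48.8% (log2 fold change −0.96, SE 0.08, edgeR adjusted p = 1.65e-05), with groups far apart. HERC5, the main human ISG15 ligase, averaged 13.5 ± 0.562 CPM in shMETTL3 libraries and 16.9 ± 0.547 CPM in shControl libraries (SD, n = 3 each), and its relative HERC6 averaged 4.00 ± 0.164 CPM in shMETTL3 libraries and 5.27 ± 0.734 CPM in shControl libraries. Both fell, by 0.32 and 0.40 on the log2 scale. USP18, which removes ISG15 and restrains the interferon receptor, had a log2 fold change of −0.31 (SE 0.11, edgeR adjusted p = 0.0386). The USP18 call was lost without any 1 of shMETTL3 libraries A and B and shControl libraries A to C (−0.34 to −0.25, edgeR adjusted p from 0.0524 to 0.148), and that of HERC6 without shMETTL3 library A or B or shControl library A or B (−0.41 to −0.33, edgeR adjusted p from 0.0641 to 0.101).

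The 2 genes of this group that did not pass, UBE2L6 and TRIM25, had higher FPKM levels than HERC5 and HERC6 but lower levels than ISG15. UBE2L6, the E2 enzyme for ISG15, had 125, 118 and 113 CPM in shMETTL3 libraries, against 128, 118 and 107 CPM in shControl libraries (log2 fold change 0.02, SE 0.08). TRIM25, a ubiquitin and ISG15 ligase, had 177, 216 and 198 CPM in shMETTL3 libraries, against 213, 198 and 172 CPM in shControl libraries (0.02, SE 0.10). In both genes the groups overlapped and the edgeR adjusted p was 0.887 and 0.899. The mean FPKM in shControl libraries was 132 for UBE2L6 and 52.1 for TRIM25, against 5.87 for HERC5, 1.69 for HERC6 and 327 for ISG15. With library size scaling the log2 fold changes of UBE2L6 and TRIM25 were −0.092 and −0.088, so their signs are not settled.

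Genes that restrict entry, budding or membranes were mixed, with 5 of 9 lower and 4 not past the test. IFI27, a mitochondrial protein induced strongly by interferon, had 27.5, 24.9 and 27.3 CPM in shMETTL3 libraries, against 48.1, 51.3 and 44.4 CPM in shControl libraries (log2 fold change −0.85, SE 0.08, edgeR adjusted p = 3.22e-05). IFITM3, which blocks fusion of viruses in endosomes, had 199, 177 and 179 CPM in shMETTL3 libraries, against 279, 273 and 282 CPM in shControl libraries (−0.59, SE 0.08, edgeR adjusted p = 0.000204). PLSCR1, a scramblase family protein with antiviral activity, had 37.9, 37.0 and 39.2 CPM in shMETTL3 libraries, against 54.7, 55.0 and 47.5 CPM in shControl libraries (−0.46, SE 0.08). All 3 had groups that did not overlap. IFITM1 was weakly expressed, at 0.658 ± 0.0364 CPM in shMETTL3 libraries and 1.03 ± 0.151 CPM in shControl libraries (SD, n = 3 each), with a log2 fold change of −0.65 (SE 0.19). IFITM2 had 24.9, 24.6 and 25.8 CPM in shMETTL3 libraries, against 25.2, 30.0 and 31.6 CPM in shControl libraries (−0.21, SE 0.09, edgeR adjusted p = 0.0900). It passed with library size scaling (−0.32, edgeR adjusted p = 0.0285) and without shControl library A (−0.30, edgeR adjusted p = 0.0257). The IFITM1 call was lost without shMETTL3 library B or shControl library B (−0.61 and −0.54, edgeR adjusted p of 0.0758 and 0.0891). IFITM1, IFITM2 and IFITM3 share closely similar sequence, and annotated exons of IFITM1 and IFITM2 overlap on the same strand, so their counts are uncertain.

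IFI6, which protects cells against flavivirus replication at the endoplasmic reticulum, passed narrowly and with overlapping groups, at 8.36 ± 1.42 CPM in shMETTL3 libraries and 11.8 ± 3.29 CPM in shControl libraries (SD, n = 3 each; log2 fold change −0.50, SE 0.18, edgeR adjusted p = 0.0450). That call was lost with DESeq2 (adjusted p = 0.173), with limma-voom (adjusted p = 0.0756), and in the edgeR fits without shMETTL3 library A, B or C or shControl library A or B (−0.60 to −0.37, adjusted p from 0.0636 to 0.176). BST2, the tether that holds budding virions, had 176, 146 and 125 CPM in shMETTL3 libraries, against 180, 164 and 143 CPM in shControl libraries. The order of the libraries was the same in both groups and their ranges overlapped (−0.13, SE 0.12, edgeR adjusted p = 0.443). LGALS3BP, a secreted glycoprotein, had 980, 912 and 784 CPM in shMETTL3 libraries, against 861, 802 and 769 CPM in shControl libraries (0.14, SE 0.10, edgeR adjusted p = 0.305). It had the most positive log2 fold change of the 53. RTP4, a chaperone of receptors, had 20, 20 and 26 counts in shMETTL3 libraries, against 24, 41 and 29 counts in shControl libraries (−0.37, SE 0.30, edgeR adjusted p = 0.367), too few for a change of that size to be detectable.

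Of 8 genes for PARP, DTX3L, TRIM and RNF213 proteins, 6 fell and 2 did not pass. PARP9 and the ubiquitin ligase DTX3L form a complex and are transcribed away from each other from a shared promoter. PARP9 had 16.9, 17.3 and 18.6 CPM in shMETTL3 libraries, against 26.5, 26.5 and 23.6 CPM in shControl libraries (log2 fold change −0.54, SE 0.08, edgeR adjusted p = 0.000426). DTX3L averaged 34.7 ± 3.03 CPM in shMETTL3 libraries and 43.4 ± 2.18 CPM in shControl libraries (SD, n = 3 each; −0.32, SE 0.08). Both fell with no overlap between the groups, and their annotated exons overlap on opposite strands. The ADP-ribosyltransferases PARP14 and PARP12 fell by 0.48 and 0.28 on the log2 scale. Among the TRIM ligases, the retroviral restriction factors TRIM5 and TRIM22, which neighbour each other on chromosome 11, fell by 0.51 and 0.37.

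TRIM21, a cytosolic antibody receptor, had 22.2, 20.3 and 21.5 CPM in shMETTL3 libraries, against 23.3, 19.8 and 18.5 CPM in shControl libraries (log2 fold change 0.06, SE 0.09, edgeR adjusted p = 0.670). RNF213, a very large ubiquitin ligase, had 216, 284 and 254 CPM in shMETTL3 libraries, against 261, 228 and 242 CPM in shControl libraries (0.04, SE 0.10, edgeR adjusted p = 0.773). Both sets of libraries overlapped, and the sign of either value turned with library size scaling (−0.05 and −0.07).

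All 6 of the regulators and remaining genes fell, with a median log2 fold change of −0.45. IRF7, the transcription factor that amplifies interferon production, had 13.5, 12.8 and 12.3 CPM in shMETTL3 libraries, against 21.0, 20.8 and 16.5 CPM in shControl libraries (−0.59, SE 0.10, edgeR adjusted p = 0.000854). LAP3, an aminopeptidase, had 42.3, 39.6 and 39.1 CPM in shMETTL3 libraries, against 55.9, 56.0 and 53.6 CPM in shControl libraries (−0.45, SE 0.07, edgeR adjusted p = 0.000607). In both the groups were apart. XAF1, a pro-apoptotic partner of XIAP, fell by 0.49, the inflammatory regulator IFI35 by 0.46 and the nuclear body protein SP110 by 0.36. IFI16, a nuclear DNA sensor, averaged 150 ± 5.96 CPM in shMETTL3 libraries and 187 ± 19.9 CPM in shControl libraries (SD, n = 3 each), and fell by 0.31. The IFI16 call was lost without shMETTL3 library B or shControl library A or B (−0.29 to −0.25, edgeR adjusted p from 0.0651 to 0.0697).

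Genes that lie side by side had log2 fold changes that were far apart in some loci and close in others. Within 100 kb of each other lie 29 of the 53 genes, in 12 loci, and 4 of these loci hold a gene that fell beside one that did not pass. In the IFIT cluster on chromosome 10 (GRCh38, 89283694 to 89421001), IFIT2 had the most negative log2 fold change and IFIT5 the least. In the OAS cluster on chromosome 12 (112906777 to 113011723), OAS2 had a log2 fold change of −1.05, against −0.60 for OAS1 and −0.57 for OAS3. The 4 loci with both kinds of gene are those of MX2 and MX1, of RSAD2 and CMPK2, of the GBP genes, and of the IFITM genes.

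**Figure D4:**
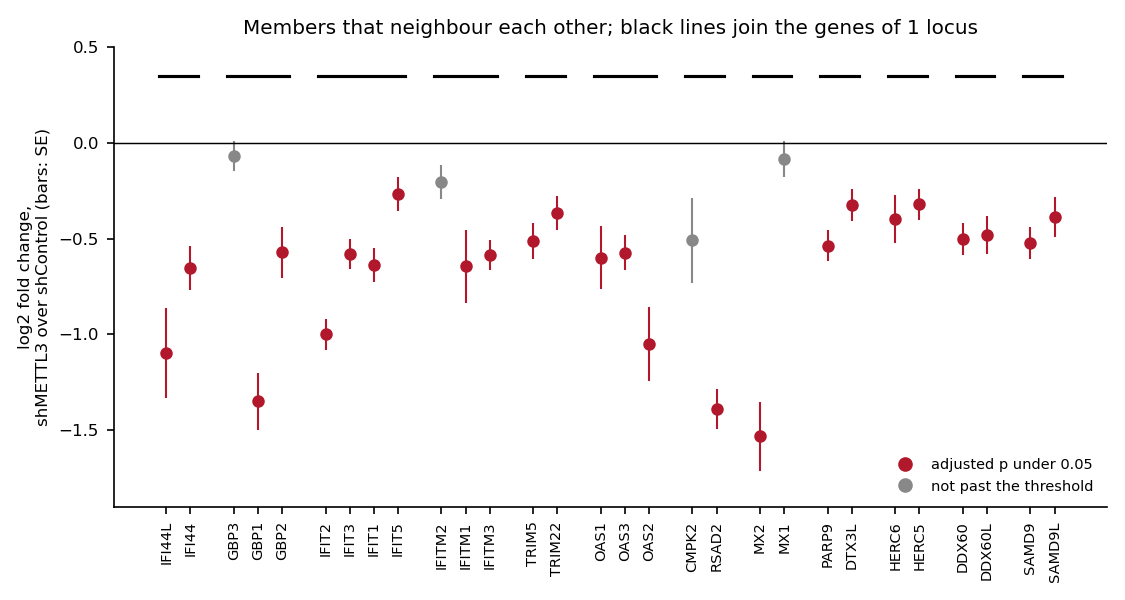
Log2 fold change with SE, shMETTL3 over shControl (y axis), of the members that neighbour each other, in genomic order along the x axis, with a black line over the genes of 1 locus. Grey points, which did not pass the test, stand beside red ones in 4 loci, those of GBP3, IFITM2, CMPK2 and MX1.

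Within families, the log2 ratio of 2 neighbouring paralogs differed between shMETTL3 and shControl libraries by −0.46 for OAS2 against OAS1, where the libraries of the groups did not overlap, as for MX2 against MX1. The difference was −0.39 for IFI44L against IFI44 and 0.14 for SAMD9L against SAMD9. It was smallest for DDX60L against DDX60, at 0.03, and for HERC6 against HERC5, at −0.07. As the exact permutation test cannot pass at 3 against 3 libraries, these 6 differences are given as values, and the test says neither that a pair differed nor that it moved alike.

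Upstream of these genes, the ligands were close to undetected. Of 10 interferon genes, IFNE alone was tested, with 17, 21 and 21 counts in shMETTL3 libraries, against 17, 25 and 16 counts in shControl libraries (log2 fold change 0.16, SE 0.32, edgeR adjusted p = 0.736). IFNB1, the type I interferon of most cells outside the immune system, had 2, 3 and 2 counts in shMETTL3 libraries, against 2, 6 and 1 counts in shControl libraries, and no change in it was detectable at this depth. The other 8 had at most 4 counts in any library. Of 6 receptor genes, 1 rose, 0 fell and 5 did not pass, where 33.5% of all genes tested were called in either direction. The chains of the type I receptor, IFNAR1 and IFNAR2, did not pass, at log2 fold changes of 0.02 (SE 0.08) and 0.17 (SE 0.07), while IFNGR2, of the interferon-gamma receptor, rose by 0.33 (SE 0.08), a call lost on unfiltered log2(FPKM + 1) (0.21, limma adjusted p = 0.0803).

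Of the ISGF3 subunits described here, IRF9 fell and STAT2 did not pass. IRF9 had 1736, 1794 and 1931 counts in shMETTL3 libraries, against 3193, 2993 and 2606 counts in shControl libraries (log2 fold change −0.55, SE 0.09, edgeR adjusted p = 0.000864). It fell with no overlap between the groups, and it is itself an interferon-stimulated gene. STAT2 had 3403, 4135 and 4455 counts in shMETTL3 libraries, against 4299, 4134 and 3855 counts in shControl libraries, with overlap between the groups (0.10, SE 0.09, edgeR adjusted p = 0.457). In the list of 11 JAK-STAT and IRF factors, 2 fell, 2 rose and 7 did not pass. Over all genes tested, 33.5% were called in either direction. JAK1 and IRF5 rose by 0.35 and 0.26, calls lost for JAK1 without shMETTL3 library B or shControl library C (0.30 and 0.26, edgeR adjusted p of 0.0661 and 0.0646) and for IRF5 without shControl library B (0.25, edgeR adjusted p = 0.0542) or with library size scaling (0.15, edgeR adjusted p = 0.154). Both calls were also lost in all 3 fits of FPKM values, where JAK1 had 0.23 (limma adjusted p from 0.0626 to 0.158) and IRF5 0.13 to 0.14 (limma adjusted p from 0.212 to 0.238). Of 6 negative regulators, 0 rose and 0 fell in edgeR at the adjusted threshold, and 1 was lower at an unadjusted p under 0.05. That gene, PTPN1, chosen here after its value was seen, passed with DESeq2 (−0.19, adjusted p = 0.0319) and limma-voom (−0.19, adjusted p = 0.0488).

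Of 13 sensors and adaptors tested, 5 fell, 0 rose and 8 did not pass. Over all genes tested, 16.9% were called lower and 16.5% higher. The RNA sensors RIG-I (DDX58) and MDA5 (IFIH1) fell by 0.61 (SE 0.08) and 0.57 (SE 0.09), with edgeR adjusted p of 0.000233 and 0.000509. The third RIG-I-like gene, DHX58, did not pass, at a log2 fold change of 0.20 (SE 0.08). TLR3 and TBK1 fell by 0.30 and 0.27. The TLR3 call was lost without shMETTL3 library A or B or shControl library A, B or C (−0.31 to −0.23, edgeR adjusted p from 0.0531 to 0.104), and the TBK1 call without shMETTL3 library A or B or shControl library B (−0.27 to −0.21, edgeR adjusted p from 0.0543 to 0.107). Of 13 MHC class I genes, 3 fell, 2 rose and 8 did not pass, against the same shares over all genes tested. PSMB9, an immunoproteasome subunit, NLRC5, the transactivator of MHC class I, and PSMB10 fell by 0.53, 0.62 and 0.34, whereas HLA-F and TAPBP rose by 0.40 and 0.36, the call for TAPBP being lost on log2(FPKM + 1) (0.21, limma adjusted p = 0.0854).

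As METTL3 methylates adenosine within a short motif, the 5 letters GGACT, a typical context of m6A, were counted in the longest coding transcript of each gene (GENCODE 29, given strand). The 53 genes had a median of 0.793 per kilobase, against 0.938 per kilobase over 13820 protein-coding genes tested. None was found in 7 of the 53 and in 1079 of the 13820. Of those 7, IFITM1, IFITM2, IFITM3 and ISG15 have short transcripts, of 855, 892, 808 and 787 bases, against a median of 3042 bases over the 53. The others of the 7 are EPSTI1, OAS1 and RSAD2, with longer transcripts of 3160, 2416 and 3519 bases. Across the 53 genes the density and the log2 fold change had a Pearson r of 0.10 and a Spearman rho of 0.20, a description without a test. Letters are not measured m6A, which was not assayed in these libraries.

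Some markers of other cells and of epithelium were called as well. Of 8 fibroblast and endothelial markers, 5 were too low to test, and PDGFRB and LUM fell, at low levels, by 1.21 and 1.57 on the log2 scale, calls lost on unfiltered log2(FPKM + 1) (limma adjusted p of 0.138 and 0.109). Summed over that list the level was 2.25 to 2.44 CPM in shMETTL3 libraries and 3.94 to 4.71 CPM in shControl libraries, with PECAM1 at 1 count at the most in any library. Of the 10 renal and epithelial markers tested, 2 rose and 1 fell, where 33.5% of all genes tested were called in either direction. Among these markers VIM, a mesenchymal intermediate filament that 786-O cells also express, rose by 1.02 (SE 0.15). The part of any of these markers in the lower interferon-stimulated genes was not tested.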

How the data were processed

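RNA from 6 libraries of 786-O cells was depleted of ribosomal RNA and sequenced from both ends, per the labels' protocols. STAR 2.7.10b, Salmon and the build GRCh38 appear, without their roles, in the submitters' processing notes, and neither the annotation release nor the strand setting is given in the sources used here. The authors deposited whole-number counts, used for all tests, and FPKM values, used to compare levels between genes and in alternatives. The columns named for the control shRNA formed the shControl group, and the other 3 were assigned to shMETTL3 by elimination, with the METTL3 level as the check. There were 0 other columns of values. The letters A to C are those of the columns.

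Counts were tested with edgeR 4.0.16 (filterByExpr, TMM scaling and its quasi-likelihood test), with p-values adjusted by Benjamini-Hochberg over all genes tested and a threshold of 0.05, in R 4.3.3, after a check on simulated counts. Standard errors were derived from the F statistic. Alternatives used DESeq2 1.42.0, limma 3.58.1, other scalings and filters, log2(FPKM + 1) and log2(FPKM + 0.1), a block by column letter, and fits without each library. Positions and exon overlap came from GENCODE 29 on GRCh38, and promoter sequences from RefSeq. Members, lists and the naming rule were chosen with earlier results of these data known. By that rule, values per library are given for the 20 members with the smallest p and for tested members not past the threshold, and the others by range and count; departing from it, the others are named here with a mean level or with a log2 fold change alone. Of the other lists, METTL3, up to 4 genes with the smallest p, and any ligand or sensor could be named, and further genes of those lists that are named were chosen after their values were seen. Some genes counted in these lists are not reported here by name.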

Additional observations from a re-analysis of the deposited data

How the results depend on the processing

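In all 17 alternative fits, 0 of the 53 genes rose. The number that fell was 43 with library size scaling, 32 with log2(FPKM + 1) and no filter, and 39 to 42 in the other fits on all libraries, and leaving out 1 library gave 34 (shControl B) to 42. The fits on filtered FPKM tested 49 of the 53 and the fit with at least 1 CPM tested 50. The median log2 fold change was −0.60 with library size scaling and between −0.57 and −0.46 in the other fits. The median of all genes tested moved to −0.113 with library size scaling, −0.0943 on filtered log2(FPKM + 1) and −0.115 on log2(FPKM + 0.1), and relative to it the members' median was −0.49, −0.38 and −0.45. With members whose exons overlap another gene left out, 29 of 34 fell (median −0.48). Of the 42 genes that fell, 30 passed in every fit that tested them and 0 changed sign. Among these 30, OAS2 was tested in 15 of the 17 fits. Of the 11 others, CMPK2 and IFITM2 passed in at least 1 fit. The 10 calls lost on unfiltered log2(FPKM + 1) were those of IFIT5, OAS1, DDX60L, IFI44L, SAMD9L, GBP2, USP18, HERC6, IFI6 and XAF1 (adjusted p from 0.0546 to 0.161). Values near 0 turned sign in some fits, with none of these values past the threshold. With library size scaling, these were UBE2L6 (−0.092), TRIM25 (−0.088), TRIM21 (−0.051), RNF213 (−0.065), IFNAR1 (−0.091) and STAT2 (−0.010). On log2(FPKM + 1), with or without a filter, they were UBE2L6 (−0.091), TRIM21 (−0.043), RNF213 (−0.021) and STAT2 (−0.049), and on log2(FPKM + 0.1) −0.092, −0.046, −0.021 and −0.054. Leaving out 1 library gave values from −0.046 to 0.082 for UBE2L6, −0.062 to 0.089 for TRIM25, −0.016 to 0.158 for TRIM21, −0.053 to 0.139 for RNF213 and −0.024 to 0.054 for IFNAR1. The cause was not tested.

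The column letter is not tied to the replicate numbers, and the deviations of same-letter libraries from their group means correlated at −0.0185, −0.0493 and 0.169, so the letters were not taken as pairs. With the letter as a replicate block, 42 of the 53 genes fell (median −0.48), and 3564 and 3421 of all genes were lower and higher.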
